A study of Mus musculus with 26 samples.

Results

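The genes described here are the mouse receptors for the colony-stimulating factors (CSF) and for transforming growth factor beta (TGF-beta), with 1 of their ligands. They are Csf1r, Csf2ra, Csf2rb, Csf2rb2, Csf3r, Csf1, Tgfbr1 and Tgfbr2, chosen by symbol through their Ensembl IDs. All 8 were found among 55487 genes, and all 8 are among the 17143 genes that passed the filter on low counts. RNA was sequenced from 2 kinds of macrophage of the mouse lung. Resident alveolar macrophages (AM) live in the air spaces of the healthy lung. Bone marrow-derived (BM) macrophages enter the lung from blood when it is inflamed. AM were taken from untreated mice (day 0, n = 3) and on days 1 (n = 4), 3 (n = 3) and 7 (n = 4) after lipopolysaccharide (LPS), a bacterial cell wall component. BM-derived macrophages were taken on days 1 (n = 5), 3 (n = 4) and 7 (n = 3) after LPS, and the labels list no untreated BM group. The labels write the route as IT and give no strain, genotype or sort markers, and the word Young stands in the descriptions of the AM day 0 libraries alone. Whether replicates came from separate animals is not labelled, and the p-values cover only sample-to-sample spread, part of which may be technical.

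Macrophages depend on colony-stimulating factors. M-CSF, the product of Csf1, acts through the receptor kinase Csf1r, which also binds interleukin 34 and keeps most macrophages and monocytes alive. GM-CSF binds the alpha chain Csf2ra, which signals only together with the beta chain Csf2rb, and this receptor is known to be required for alveolar macrophages to develop and to clear surfactant. TGF-beta binds Tgfbr2, which then recruits and activates the kinase Tgfbr1, and this pathway too is known to maintain alveolar macrophages.

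Total counts ran from 9176202 to 80816742 per library, with the 3 AM day 0 libraries the deepest. Levels are CPM, counts divided by the TMM-scaled library size and given on the usual CPM scale, and libraries are named by group and replicate, as in BM_day3.1. The counts behind the 8 genes were between 27 and 80114 per library. The labels were checked against marker lists. The summed level of 10 resident alveolar macrophage markers was 16976 to 32098 CPM in AM libraries and 983 to 4222 CPM in BM day 1 and day 3. In BM day 7 it was 14776 and 15621 CPM in replicates 1 and 2 and 2911 CPM in replicate 3. Markers of blood monocytes summed to 1093 to 3961 CPM in BM libraries and to 114 to 989 CPM in AM libraries other than AM_day3.2, which had 2388 CPM. BM_day3.1 stood apart, with fibroblast markers at 27473 CPM against 19.0 to 320 CPM in the rest of its group and neutrophil markers at 3320 CPM against 234 to 374 CPM. The AM day 0 and BM day 1 libraries each have a library-name prefix of their own, so a difference from either group and a difference between prefixes cannot be told apart. BM day 1 also stood apart in the summed level of 70 histone genes, at 681 to 1970 CPM against 54.4 to 88.0 CPM in AM day 1 and 46.1 to 106 CPM in BM day 3. Their part in the day 1 results was not tested. Y-linked transcripts were at 146 to 227 CPM in AM day 0, day 1 and day 3 and at most 4.09 CPM in AM day 7 and BM day 7. They were at 7.75 to 38.4 CPM in BM day 1, where every library was below every AM day 1 library. In BM day 3 they were at 0.165, 0.0479, 167 and 169 CPM. Groups compared here, among them BM and AM on day 1, thus also differ in these transcripts.

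**Figure D1:**
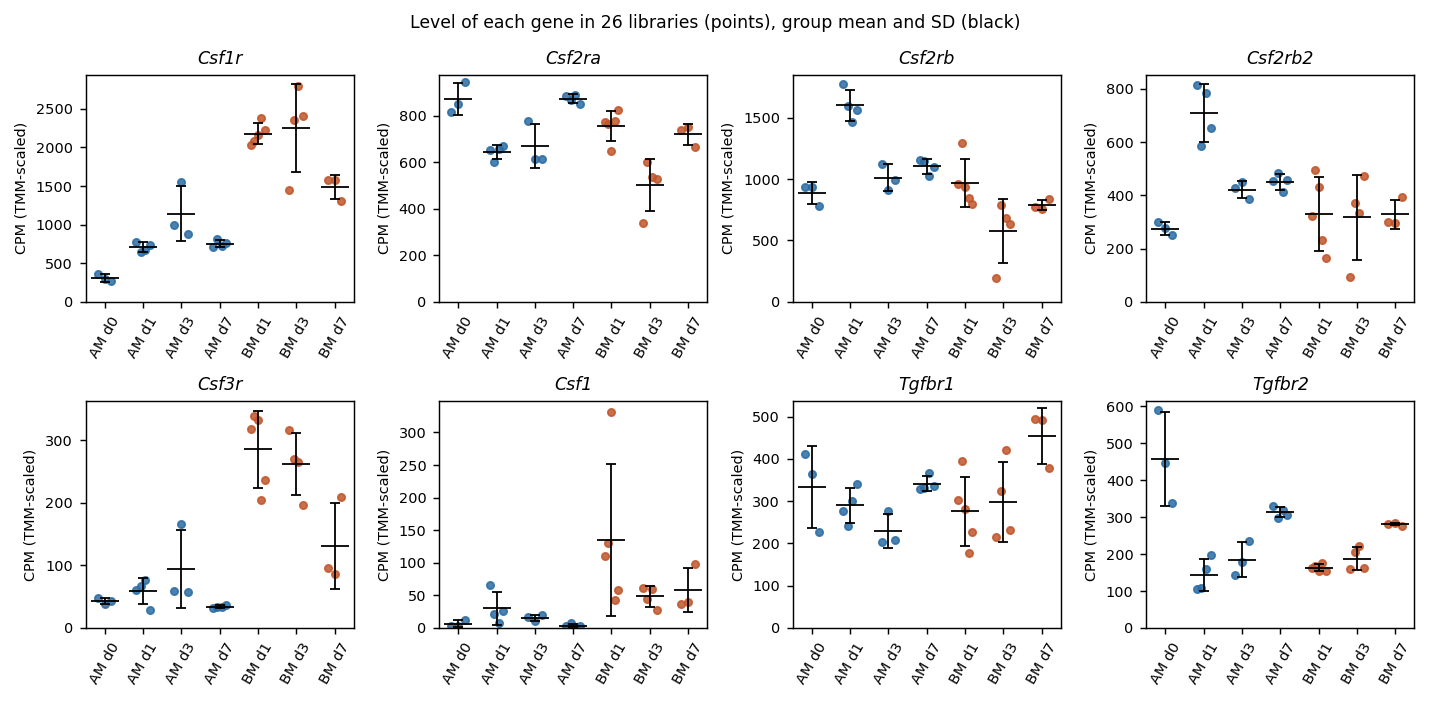
CPM (vertical axis, linear from 0) of each of the 8 genes in the 26 libraries, by cell type and day (d). Points are libraries (blue AM, orange BM), and black bars give the group mean ± SD. Csf1r and Csf3r stand highest in BM day 1 and day 3, Csf2rb and Csf2rb2 in AM day 1, and Tgfbr2 in AM day 0.

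The 2 cell types differed most in the receptors for M-CSF and G-CSF and in the ligand Csf1. Each comparison used edgeR's quasi-likelihood test on all genes, with Benjamini-Hochberg adjustment, and a gene was called at an adjusted p under 0.05. At day 1, 5 of the 8 genes were called between BM and AM, where 29.0% of all genes tested were called (15.2% higher, 13.8% lower): Csf1r, Csf3r and Csf1 higher in BM, Csf2rb and Csf2rb2 lower. At day 3, 2 of 8 were called, Csf1r and Csf3r, both higher in BM, against 3.98% of all genes (0.997% higher, 2.99% lower). At day 7, 3 of 8 were called, Csf1r, Csf3r and Csf1, all higher in BM, against 1.77% of all genes (1.48% higher, 0.286% lower). The median log2 fold change of the 8 was 0.21, 0.20 and 0.13 at the 3 days, and that of all genes was 0.06, −0.07 and 0.03. Within AM the main movements were in Csf1r and Tgfbr2. On day 1 against day 0, 4 of 8 were called (Csf1r, Csf2rb and Csf2rb2 higher, Tgfbr2 lower), where 6.28% of all genes were called (3.22% higher, 3.06% lower). On day 3 it was 2 of 8 (Csf1r higher, Tgfbr2 lower, against 2.51%, with 1.78% higher and 0.723% lower), and on day 7 Csf1r alone (1 of 8, higher, against 0.677%, with 0.408% higher and 0.268% lower).

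The ligand gene Csf1 was scarce in AM and higher in BM-derived cells. It was at 2.52, 3.67 and 12.3 CPM in the AM day 0 libraries and at 3.56, 6.96, 1.37 and 3.35 CPM in AM day 7. In BM day 7 it was at 36.7, 40.2 and 98.0 CPM, so every BM day 7 library stood above every AM library of that day. The difference was 15.3-fold, a log2 fold change of 3.93 ± 0.73 (SE, edgeR adjusted p = 0.0018). It was 3.33 without BM_day7.3, the highest library (adjusted p = 0.016), and 4.66 without BM_day7.1 and BM_day7.2 (adjusted p = 0.0035). At day 1 the BM libraries held 110, 131, 332, 42.9 and 58.4 CPM, and the AM libraries 65.5, 21.9, 6.98 and 25.6 CPM. The groups overlapped in AM_day1.1, and BM_day1.3 was far above the rest. The difference of 2.17 ± 0.64 was called (edgeR adjusted p = 0.013). Without BM_day1.3 and BM_day3.1, the libraries with the fewest genes detected, it was 1.5 and not called (adjusted p = 0.056). It was 1.56 without BM_day1.3 alone (adjusted p = 0.048) and 2.93 without AM_day1.1 (0.0031). At day 3 the BM libraries (61.6, 45.0, 60.3 and 28 CPM) all exceeded the AM libraries (17.3, 10.1 and 19.3 CPM), but the difference of 1.64 ± 0.72 did not pass the test (edgeR adjusted p = 0.18). The difference within BM between day 3 and day 1 was not called (−1.47 ± 0.62, edgeR adjusted p = 0.078), and without BM_day1.3 it was −0.85 (adjusted p = 0.31).

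Csf1 is also made by endothelial cells and fibroblasts. The 6 endothelial markers summed to 190 to 425 CPM in BM day 1 against 36.3 to 67.3 CPM in AM day 1, and to 150 to 306 CPM in BM day 7 against 78.7 to 108 CPM in AM day 7. Their part in the Csf1 difference was not tested. All 6 had a higher median in BM than in AM on both days. On day 7 Vwf made up most of the sum, at 124 to 297 CPM in BM and 74.7 to 98.2 CPM in AM, and on day 1 Pecam1 did in BM, at 66.0 to 373 CPM against 0 to 8.91 CPM in AM. Cdh5, a junction protein of endothelium, was at 1.54 to 3.22 CPM in BM day 7 and 0.304 to 4.09 CPM in AM day 7. The ranges of Tek and Cldn5 also overlapped on that day. Pecam1 was at 4.33 to 15.6 CPM in BM day 7 and 1.22 to 3.53 CPM in AM day 7. Kdr was at 2.16 to 3.25 and 0.457 to 1.75 CPM there, and neither Pecam1 nor Kdr overlapped. On day 1 Cdh5 was at 9.55 to 57.9 CPM in BM and 0 to 12.8 CPM in AM, and Kdr at 0 to 60.8 and 0 to 5.52 CPM (medians 17.1 and 1.6). The 7 fibroblast markers summed to 33.6, 43.3 and 6.8 CPM in BM day 7 and to 15.3, 450, 4.11 and 5.68 CPM in AM day 7, and their part was not tested either. Within AM, the difference of Csf1 between day 7 and day 3 was not called (−2.03 ± 0.69, edgeR adjusted p = 0.25), nor was that between day 1 and day 0 (2.29 ± 0.74, adjusted p = 0.063). The latter was called in 6 of 38 alternatives and ranged from 1.54 without AM_day1.1 (adjusted p = 0.23) to 3.26 without AM_day0.3 (0.023). The change from day 3 to day 7 differed between BM and AM by 2.29 ± 0.96 and did not pass the test (edgeR adjusted p = 0.33). None of the 8 genes was called in that interaction by edgeR or by DESeq2, where edgeR called 0.362% of all genes (0.338% higher, 0.0233% lower), and 1 gene, Csf1, had an unadjusted p under 0.05.

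Csf1r, the M-CSF receptor (ENSMUSG00000024621, chromosome 18, 61100598 to 61132149 of GRCm38), had the clearest order of levels. It was lowest in AM day 0, at 359, 288 and 270 CPM. It was at 778, 650, 666 and 739 CPM in AM day 1, at 992, 1557 and 881 CPM in AM day 3, and at 706, 819, 728 and 755 CPM in AM day 7. Every library after LPS was above the day 0 range. The 8 blood monocyte markers summed to 170 to 189 CPM on day 0, 365 to 580 CPM on day 1, 871 to 2388 CPM on day 3 and 114 to 161 CPM on day 7. Between day 0 and day 7 single markers went both ways. Itgam was at 0.48 to 1.99 CPM on day 0 and 10.2 to 23.8 CPM on day 7. Ly6c2 was at 4.43 to 7.85 and 0.582 to 1.52 CPM. The part of monocyte transcripts in the Csf1r changes was not tested. Against day 0 the log2 fold changes were 1.21 ± 0.19 on day 1, 1.90 ± 0.20 on day 3 and 1.3 ± 0.19 on day 7 (edgeR adjusted p = 8.7e-05, 4.9e-07 and 0.00031), and each remained called under all 38 alternatives. These 3 comparisons share the day 0 libraries. The difference between AM day 7 and day 3 was not called (−0.60 ± 0.18, edgeR adjusted p = 0.13), was called in 4 of 38 alternatives, and was −0.31 without AM_day3.2 (adjusted p = 1.0).

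BM-derived cells carried more Csf1r than AM of the same day. The BM libraries held 2035, 2087, 2159, 2387 and 2226 CPM on day 1, 1447, 2352, 2791 and 2404 CPM on day 3, and 1576, 1581 and 1310 CPM on day 7. On days 1 and 7 every BM library was above every AM library of the day. On day 3 the groups overlapped, because BM_day3.1 (1447 CPM) was below AM_day3.2 (1557 CPM). The differences were 1.62 ± 0.17, 0.98 ± 0.19 and 0.99 ± 0.18 on days 1, 3 and 7 (edgeR adjusted p = 4.0e-08, 0.0040 and 0.0015). The day 3 call was lost when only the 2 groups compared were fitted (adjusted p = 0.18), and the day 7 call without BM_day7.1 and BM_day7.2 (0.78, adjusted p = 0.26). Between BM day 7 and day 3 the difference was −0.59 ± 0.19 and not called (edgeR adjusted p = 0.069), and 8 of 38 alternatives called it. Among the groups, BM day 3 and BM day 1 (means 2249 and 2179 CPM) overlapped, as did AM day 7 and AM day 1 (752 and 708 CPM). AM_day3.2, the AM library with the most Csf1r, is also the one with the most monocyte transcripts, and their part in its level was not tested. Csf1r shares its position with Hmgxb3 on the other strand. The strand setting of the counting is not given in the sources used here, so reads of the pair may not be fully separated.

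Csf2ra, the GM-CSF receptor alpha chain (ENSMUSG00000059326, chromosome 19, 61223957 to 61228429), varied the least among the CSF receptors. Its group means lay between 501 ± 112 CPM in BM day 3 (SD, n = 4) and 873 ± 18.1 CPM in AM day 7 (n = 4). In the order of group means, every pair of neighbours overlapped. The AM libraries held 814, 851 and 946 CPM on day 0, 652, 600, 657 and 668 CPM on day 1, 776, 614 and 615 CPM on day 3, and 885, 866, 889 and 850 CPM on day 7. Thus all 7 libraries of days 1 and 3 were below all 7 of days 0 and 7. The differences from day 0 (−0.43 ± 0.15 on day 1 and −0.38 ± 0.16 on day 3) were not called, with edgeR adjusted p of 0.086 and 0.35, nor was that between day 7 and day 3 (0.39 ± 0.15, 0.42) or between BM and AM on day 3 (−0.41 ± 0.15, 0.11).

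In BM-derived cells Csf2ra fell from day 1 (771, 763, 647, 777 and 823 CPM) to day 3 (340, 602, 536 and 526 CPM). The groups did not overlap. The change of −0.59 ± 0.13 was called (edgeR adjusted p = 0.0024). Without BM_day3.1, the lowest library, it was −0.44 (adjusted p = 0.014). On day 7 the BM libraries held 738, 751 and 666 CPM, a rise of 0.52 ± 0.15 from day 3 at the edge of the threshold (adjusted p = 0.047), which held under 5 of 38 alternatives. Without BM_day3.1 it was 0.38 (adjusted p = 0.13). Between days 1 and 3, 2 of the 8 genes were called in BM, both lower (25.9% of all genes, 10.6% higher and 15.2% lower), and between days 3 and 7 it was 1 of 8, Csf2ra, higher (3.98%, 3.09% higher and 0.898% lower).

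Csf1r and Csf2ra were also set against each other per kilobase of exon within each library. The ratio of Csf1r to Csf2ra was 0.142, 0.168 and 0.219 in AM day 0 and 0.504 to 0.594 in AM day 1. In AM day 3 it was 0.635 to 1.26, and in AM day 7 0.397 to 0.470. In BM-derived cells it was 1.31 to 1.66 on day 1, 1.94 to 2.59 on day 3 and 0.977 to 1.06 on day 7. On each of the 3 days every BM library had a higher ratio than every AM library. The ratio does not depend on the scaling between libraries, and it was given no test.

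**Figure D2:**
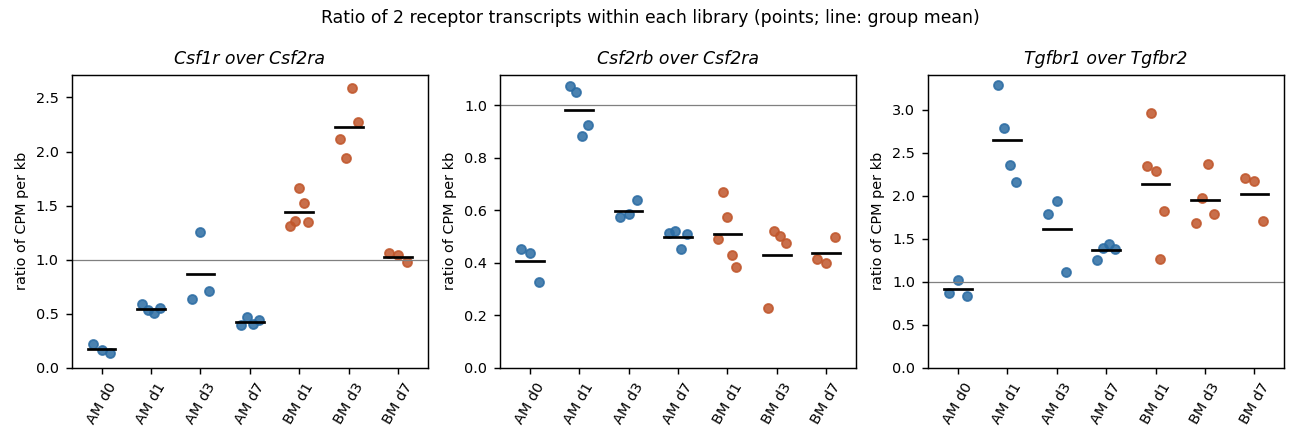
Ratio of CPM per kilobase of exon between pairs of receptor genes within each library (vertical axis, linear from 0; points, blue AM and orange BM; line, group mean; grey line at 1). Csf1r over Csf2ra was 0.177 on average in AM day 0 and 2.23 in BM day 3, Csf2rb over Csf2ra peaked in AM day 1 at 0.983, and Tgfbr1 over Tgfbr2 was 0.913 in AM day 0 and 2.64 in AM day 1.

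Csf2rb and Csf2rb2 encode beta chains. Csf2rb is shared by the receptors for GM-CSF, interleukin 3 and interleukin 5, and Csf2rb2 is a mouse duplicate that serves interleukin 3. They lie near each other on chromosome 15, Csf2rb (ENSMUSG00000071713) at 78325752 to 78353847 on the plus strand and Csf2rb2 (ENSMUSG00000071714) at 78282507 to 78305721 on the minus strand of GRCm38. Their coding sequences of 2688 and 2634 bases are 95.2% identical over 2628 aligned bases, with an identical run of 242 bases. Reads may therefore be split between them or dropped, and their separate values are uncertain. Of all 100-base windows of the Csf2rb transcript 6.96% occur unchanged in Csf2rb2. The stretch of coding bases 934 to 1053 is shown because 4 bases of 120 tell the pair apart there. Sequences are from GENCODE M21, with the 4 differing bases in capitals.
Csf2rb: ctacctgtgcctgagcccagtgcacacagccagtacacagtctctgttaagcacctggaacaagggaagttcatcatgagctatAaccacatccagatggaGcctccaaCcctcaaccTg
Csf2rb2: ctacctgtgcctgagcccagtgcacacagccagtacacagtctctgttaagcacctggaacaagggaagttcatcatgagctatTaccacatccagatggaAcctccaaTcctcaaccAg

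Both beta chains were highest in AM on day 1. Csf2rb was at 937, 940 and 783 CPM in AM day 0 and at 1775, 1598, 1470 and 1566 CPM in AM day 1. Csf2rb2 was at 298, 279 and 249 CPM on day 0 and at 814, 584, 786 and 654 CPM on day 1. For both genes every AM day 1 library stood above every other AM library. The rise was 0.85 ± 0.26 for Csf2rb (edgeR adjusted p = 0.047) and 1.37 ± 0.35 for Csf2rb2 (adjusted p = 0.017). The Csf2rb call held under 8 of 38 alternatives, with fold changes of 0.76 to 0.90 in all of them. The Csf2rb2 call was lost without any 1 of the 3 day 0 libraries (1.29 to 1.42, adjusted p = 0.078 to 0.097). On day 7 Csf2rb was at 1154, 1148, 1022 and 1098 CPM, and Csf2rb2 at 452, 483, 412 and 457 CPM. Neither gene was called against day 0 on days 3 and 7.

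BM-derived cells had less of both beta chains than AM on day 1. The 5 BM libraries held 958, 1294, 940, 847 and 801 CPM of Csf2rb and 324, 497, 433, 232 and 163 CPM of Csf2rb2. All were below the AM day 1 range. The differences of −0.73 ± 0.22 and −1.10 ± 0.30 were called (edgeR adjusted p = 0.017 and 0.0076). When Y-linked expression was a covariate they were −0.62 and −0.87 and not called (adjusted p = 0.10 and 0.079). The Csf2rb call was also lost without AM_day1.1 (adjusted p = 0.063), without BM_day1.5 (0.055) and without the filter on low counts (0.094). On day 3 BM_day3.1 held 197 CPM of Csf2rb and 93.4 CPM of Csf2rb2, against 635 to 793 and 332 to 471 CPM in the rest of its group. The difference of Csf2rb from AM on day 3 did not pass the test (−0.81 ± 0.25, edgeR adjusted p = 0.067). Without BM_day3.1 it was −0.53 (adjusted p = 0.059), and it was called with DESeq2 (0.037) and without BM_day3.2 (−1.02, 0.031). Within BM, Csf2rb fell from day 1 to day 3 (−0.75 ± 0.23, edgeR adjusted p = 0.019; 0.15 when only these groups were fitted), and the change was −0.45 without BM_day3.1 (adjusted p = 0.028). On day 7 the BM libraries held 774, 760 and 840 CPM of Csf2rb, below the AM range of 1022 to 1154 CPM, but the difference was not called (edgeR adjusted p = 0.73). When BM and AM day 7 alone were fitted, Csf2ra (−0.29, adjusted p = 0.033), Csf2rb (−0.49, 0.0027) and Csf2rb2 (−0.46, 0.016) were called lower in BM. Per kilobase, Csf2rb stood at 0.406 ± 0.0693 of Csf2ra in AM day 0 (SD, n = 3) and at 0.983 ± 0.0937 in AM day 1 (n = 4).

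Csf3r, the G-CSF receptor (ENSMUSG00000028859, chromosome 4, 126024550 to 126044440), is best known from neutrophils and is also present on monocytes. It was higher in BM-derived cells on every day. The BM libraries held 318, 339, 332, 205 and 236 CPM on day 1 and 316, 270, 265 and 197 CPM on day 3. The AM libraries held 60.8, 67.8, 77.3 and 29.1 CPM on day 1 and 59.9, 166 and 56.8 CPM on day 3. The groups did not overlap on either day, and AM_day3.2 came nearest to the BM range. The differences were 2.28 ± 0.32 (edgeR adjusted p = 4.4e-06) and 1.47 ± 0.35 (adjusted p = 0.018). The day 3 call was lost without AM_day3.1 or AM_day3.3 (1.23 and 1.21, adjusted p = 0.12 for both), when only the 2 groups were fitted (0.18) and when Y-linked expression was a covariate (0.13). Without AM_day3.2 the difference was 2.16 (adjusted p = 0.0012).

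On day 7 Csf3r was at 96.0, 85.9 and 210 CPM in BM and at 31.4, 33.3, 34.1 and 36.7 CPM in AM. All BM libraries were higher, and BM_day7.3 was the highest. The difference of 1.94 ± 0.34 was called (edgeR adjusted p = 0.00086) and remained so without BM_day7.3 (1.42, adjusted p = 0.030), and it was 2.61 without BM_day7.1 and BM_day7.2 (adjusted p = 0.00027). Within AM, Csf3r fell from day 3 to day 7 (−1.48 ± 0.34, edgeR adjusted p = 0.016), the single call among the 8 genes there (1.59% of all genes, 0.233% higher and 1.35% lower). That call rested on AM_day3.2, and without it the change was −0.78 (adjusted p = 0.80). It was also lost without any 1 of AM_day7.1, AM_day7.2 and AM_day7.3 (adjusted p = 0.056 to 0.058). The difference in BM between day 7 and day 3 was not called (−1.0 ± 0.35, edgeR adjusted p = 0.099), and it was called without BM_day7.3 (−1.52, adjusted p = 0.025) and with DESeq2 (0.040). That in AM between day 3 and day 0 was not called (1.12 ± 0.37, adjusted p = 0.14) and was 0.43 without AM_day3.2 (adjusted p = 0.91).

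Neutrophil and monocyte transcripts were set beside Csf3r, and their relation was given no test. The 14 neutrophil markers, Csf3r not among them, summed to 335 to 1081 CPM in BM day 1 against 80.3 to 536 CPM in AM day 1, and to 234 to 3320 CPM in BM day 3 against 152 to 238 CPM in AM day 3. On day 1, 11 of the 14 had a higher median in BM than in AM, among them S100a9 (142 to 595 against 28 to 287 CPM) and Mmp9 (38.6 to 147 against 0 to 21.4 CPM). Of the 14, Elane was at 0 in all 26 libraries, Mpo in 23 and Ly6g in 20, but Ly6g was at 0 in only 2 of the 5 BM day 1 libraries. Retnlg was at 20.4 to 92.0 CPM in BM day 1 and 0 to 30.8 CPM in AM day 1, and Ngp at 8.99 to 75.3 and 0 to 8.02 CPM. On day 7 the sums were 75.9, 70.7 and 286 CPM in BM and 42.2 to 78.0 CPM in AM, with the highest sum and the highest Csf3r both in BM_day7.3. In BM_day3.1 the sum was 3320 CPM and Csf3r 316 CPM. In BM_day3.3 they were at 234 and 265 CPM, and in AM_day1.2 at 536 and 67.8 CPM. The part of neutrophil and monocyte transcripts in the Csf3r differences was not tested. AM_day3.2, high in Csf3r for an AM library, had the highest monocyte sum of its cell type. Bulk RNA cannot tell fewer cells of a type from less RNA per cell.

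**Figure D3:**
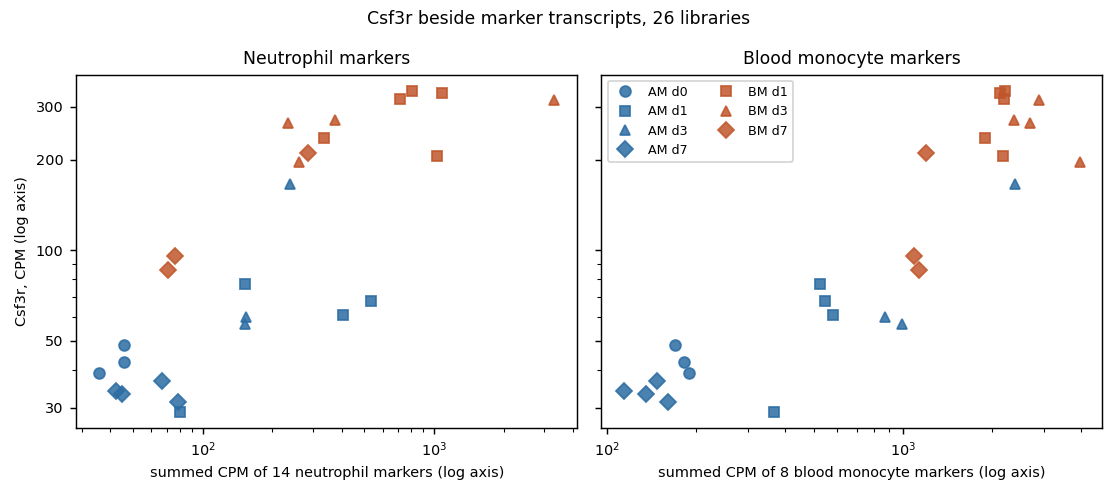
Csf3r CPM (vertical axis, log scale) against the summed CPM of 14 neutrophil markers (left) and 8 blood monocyte markers (right, both log scale) in the 26 libraries; blue AM, orange BM, shapes for days. At neutrophil sums of 70.7 to 78.0 CPM the BM day 7 libraries held 85.9 and 96.0 CPM of Csf3r and AM_day7.1 held 31.4 CPM.

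Tgfbr2, the receptor chain that binds TGF-beta (ENSMUSG00000032440, chromosome 9, 116084293 to 116175360), was lowest in AM on the days soon after LPS. It was at 590, 446 and 338 CPM in AM day 0 and at 106, 109, 160 and 198 CPM in AM day 1. It was at 143, 178 and 236 CPM in AM day 3 and at 329, 297, 319 and 306 CPM in AM day 7. Every library of days 1 and 3 was below every library of days 0 and 7. Against day 0 it fell 3.19-fold on day 1 (−1.67 ± 0.21, edgeR adjusted p = 3.9e-06) and 2.47-fold on day 3 (−1.3 ± 0.23, adjusted p = 0.00052). Both calls remained under all 38 alternatives. On day 7 it was not called against day 0 (−0.55 ± 0.21, edgeR adjusted p = 0.51; 0.034 when only these groups were fitted). The difference between day 7 and day 3 was 0.75 ± 0.21 and not called (adjusted p = 0.079), and 5 of 38 alternatives called it, among them DESeq2 (0.76, adjusted p = 0.0093) and the fits without AM_day3.3 (0.97, 0.039) or AM_day1.4 (0.75, 0.047). Endothelial markers summed to 102 to 157 CPM in AM day 0 and 36.3 to 67.3 CPM in AM day 1, and lung epithelial markers to 160 to 290 and 27.6 to 68.0 CPM. Within these sums Vwf was at 76.5 to 116 CPM in AM day 0 and 28.6 to 48.9 CPM in AM day 1. Epcam was at 124 to 187 and 3.27 to 38.4 CPM. Dendritic cell markers summed to 78.9 to 219 and 13.9 to 39.2 CPM. Markers of T and natural killer cells summed to 24.4 to 42.9 and 1.77 to 8 CPM. For B cells the sums were 35.4 to 59.6 and 1.15 to 11.5 CPM. The fibroblast sums of these days overlapped. The part of these transcripts in the Tgfbr2 change was not tested. In AM day 7 the epithelial sum was 181 to 226 CPM, with Epcam at 153 to 176 CPM.

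In BM-derived cells Tgfbr2 was at 161, 167, 154, 176 and 155 CPM on day 1, 160, 205, 223 and 163 CPM on day 3, and 281, 284 and 277 CPM on day 7. The day 7 libraries were above those of the earlier days, but the difference from day 3 was not called (0.58 ± 0.21, edgeR adjusted p = 0.11). No difference between BM and AM passed edgeR's test on days 1, 3 and 7 for Tgfbr2 (adjusted p = 0.50, 1.0 and 1.0) or for Tgfbr1 (0.85, 0.43 and 0.82) in the fit to all libraries. On day 7 neither gene's groups overlapped, and Tgfbr1 was at 494, 491 and 378 CPM in BM against 328, 331, 367 and 337 CPM in AM. When those groups alone were fitted, Tgfbr1 was called higher in BM (0.41, edgeR adjusted p = 0.022) and Tgfbr2 was not called (−0.16, 0.19).

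Tgfbr1, the signalling kinase that Tgfbr2 activates (ENSMUSG00000007613, chromosome 4, 47353222 to 47414931), was called in none of the 10 comparisons by edgeR on all libraries, and its unadjusted p was under 0.05 in 3 of them. In those 3, DESeq2 made no call, and the fit to AM day 7 and day 3 alone called it (0.55, adjusted p = 0.0037). Its group means ran from 230 ± 40.0 CPM in AM day 3 (SD, n = 3) to 454 ± 66.4 CPM in BM day 7 (n = 3). In AM day 0 it was at 412, 365 and 226 CPM and in AM day 1 at 278, 242, 301 and 341 CPM, and the groups overlapped. In AM day 3 it was at 204, 276 and 209 CPM, a difference of −0.54 ± 0.26 from day 0 (edgeR adjusted p = 0.46). The difference between day 7 and day 3 was 0.57 ± 0.25 in AM (adjusted p = 0.52) and 0.61 ± 0.24 in BM (adjusted p = 0.15). Per kilobase, Tgfbr1 was at 0.838 to 1.03 of Tgfbr2 in AM day 0 and at 2.16 to 3.27 in AM day 1. The ratio was 1.11 to 1.94 in AM day 3 and 1.25 to 1.44 in AM day 7, so no AM library after LPS was within the day 0 range. In BM-derived cells it was 1.27 to 2.96 on day 1, 1.69 to 2.37 on day 3 and 1.71 to 2.20 on day 7.

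**Figure D4:**
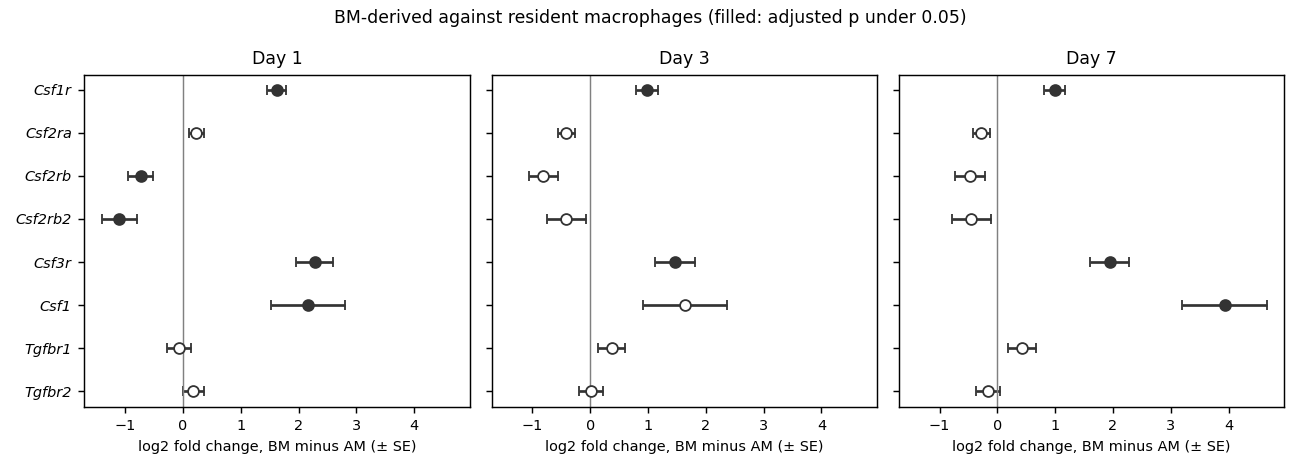
Log2 fold change of BM-derived against resident macrophages on days 1, 3 and 7 (horizontal axis, points with SE from edgeR; filled points have an adjusted p under 0.05). Csf1r and Csf3r are filled on all 3 days, Csf1 on days 1 and 7, and Tgfbr1 and Tgfbr2 on none.

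**Figure D5:**
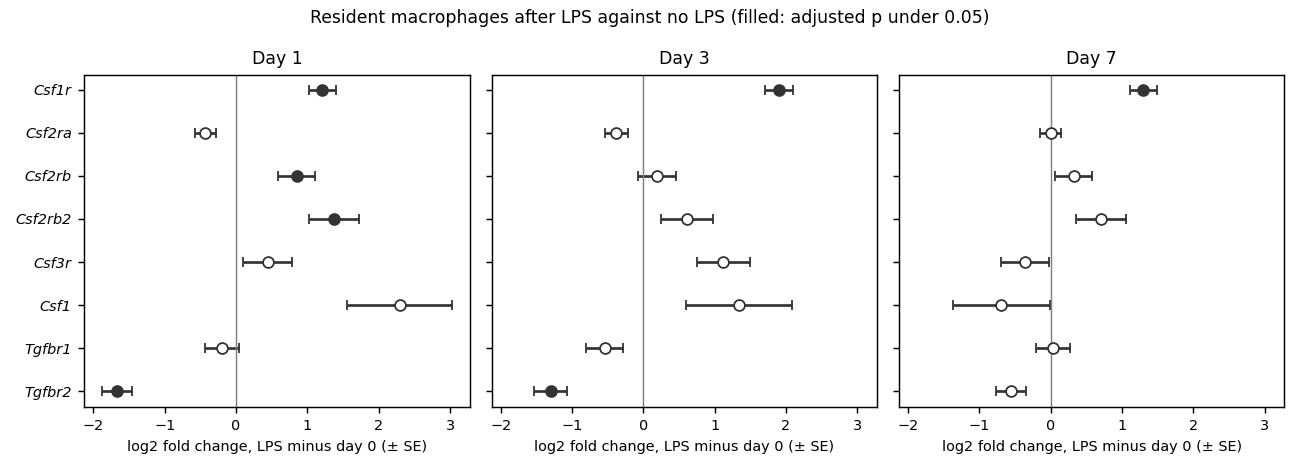
Log2 fold change of resident macrophages on days 1, 3 and 7 after LPS against day 0 (horizontal axis, points with SE from edgeR; filled points have an adjusted p under 0.05). Csf1r is filled on all 3 days (1.21, 1.90 and 1.3) and Tgfbr2 on days 1 and 3 (−1.67 and −1.3).

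The bases just before the start sites were read for a motif, because Spi1 (PU.1), an ETS family factor, is known to act at CSF receptor promoters in myeloid cells. RefSeq (GRCm38.p6) gave 7 windows of 250 bases for 6 of the genes, and none for Csf1r and Csf2rb. The 6-base motif searched on both strands was GAGGAA, which reads TTCCTC on the other strand. It was present in 5 of the 7 windows and in 23.3% of all 32851 windows of that length. Csf2ra held it in 2 places, and Csf3r, Csf2rb2, Tgfbr2 and 1 of 2 Tgfbr1 starts in 1. The windows of Csf1 and the other Tgfbr1 start held none. The window of Csf3r, called between the cell types on every day, is chr4:126024409-126024658 on the plus strand, and that of Tgfbr2, called after LPS, is chr9:116175364-116175613 on the minus strand. Both are printed in the direction of the gene, with the motif in capitals. The start sites are those of RefSeq, and GENCODE M21 differs for Csf3r, Csf2ra and, by a few bases, Tgfbr2 (GENCODE start at 116175360). The Csf3r window reaches past the GENCODE start at 126024550 into the gene, and its motif lies past that start. That of Csf2ra, chr19:61228419-61228668 on the minus strand, reaches past its GENCODE start at 61228429. Its first match lies across that start and its second past it. The Tgfbr1 window with a match lies inside the GENCODE gene. A match of 6 letters is a description of the sequence and shows no binding.
Csf3r: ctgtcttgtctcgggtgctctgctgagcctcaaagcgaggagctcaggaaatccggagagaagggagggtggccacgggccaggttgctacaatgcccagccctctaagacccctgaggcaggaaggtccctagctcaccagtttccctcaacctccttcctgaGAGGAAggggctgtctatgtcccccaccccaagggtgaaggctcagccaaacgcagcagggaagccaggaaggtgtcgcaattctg
Tgfbr2: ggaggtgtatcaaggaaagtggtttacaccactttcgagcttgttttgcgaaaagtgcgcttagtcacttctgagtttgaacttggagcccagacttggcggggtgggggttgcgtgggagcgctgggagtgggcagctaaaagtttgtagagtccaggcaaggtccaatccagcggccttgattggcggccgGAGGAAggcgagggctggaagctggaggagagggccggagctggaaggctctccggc

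Among the other CSF ligands, Csf2 (GM-CSF) was at most 4.87 CPM and Il34 at most 0.622 CPM in any library. Csf3 (G-CSF) was at 0.0751 to 1.22 CPM in AM day 0, 8.46 to 32.6 CPM in AM day 1 and 11.5 to 50.4 CPM in BM day 1. Of the 9 genes of this list 5 were tested. Between BM and AM edgeR called none on days 1, 3 and 7 (29.0%, 3.98% and 1.77% of all genes). On these days 0, 1 and 0 had an unadjusted p under 0.05. In AM against day 0, 6.28%, 2.51% and 0.677% of all genes were called on days 1, 3 and 7. Il3ra, the interleukin 3 receptor alpha chain and the most abundant of the list, was the single member called in AM against day 0, with a rise of 1.29 ± 0.33 on day 1, 1.41 ± 0.35 on day 3 and 2.05 ± 0.34 on day 7 (edgeR adjusted p = 0.015, 0.022 and 0.0016). Its mean went from 22.2 ± 0.954 CPM in AM day 0 (SD, n = 3) to 91.9 ± 11.7 CPM in AM day 7 (n = 4). The day 1 and day 3 calls were lost without any 1 of the 3 day 0 libraries (adjusted p up to 0.093 and 0.13), the day 3 call also without any 1 AM day 3 library, and the day 7 call when Y-linked expression was a covariate (1.03, adjusted p = 0.45).

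Of 22 genes of CSF receptor signalling, 12 were called higher and 1 lower in BM on day 1, where 15.2% and 13.8% of all genes were. Stat5b, a transcription factor activated by these receptors, was higher (157 against 39.2 CPM, 2.00 ± 0.34, edgeR adjusted p = 6.6e-05), and Socs2, an inhibitor of cytokine signalling, was lower (13.4 against 100 CPM, −2.90 ± 0.75, adjusted p = 0.0059). On day 3, 2 of 22 were higher, the inhibitor Socs3 (0.98 ± 0.26, adjusted p = 0.029) and the kinase Jak1 (0.75 ± 0.18, adjusted p = 0.021), against 0.997% of all genes. These calls held in 29 and 34 of 38 alternatives and were lost without AM_day3.1 or AM_day3.3, that of Socs3 also without AM_day3.2, BM_day3.2 or BM_day3.4 and that of Jak1 without BM_day3.3. On day 7 it was Socs3 alone, higher, where 1.48% of all genes were higher and 0.286% lower. Socs3 was at 481 ± 20.6 CPM in BM (SD, n = 3) and 83.7 ± 22.7 CPM in AM (n = 4). The difference was 2.52 ± 0.25 (edgeR adjusted p = 4.1e-07). In AM on day 1 against day 0, 4 were higher and 3 lower, where 3.22% and 3.06% of all genes were, with Socs3 at 2.15 ± 0.27 (adjusted p = 3.9e-06), Jak2 at 1.18 ± 0.27 (0.0067) and Socs1 at 3.93 ± 0.97 (0.011) among the higher, these last chosen after their values were seen. Jak2 and Socs1 were not called without AM_day0.1 (adjusted p = 0.080 and 0.095).

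On the TGF-beta side, 6 of 14 genes for ligands and their activation were higher and 1 lower in BM on day 1, where 15.2% and 13.8% of all genes were. Thbs1, a matrix protein that activates latent TGF-beta, stood at 4057 ± 407 CPM in BM (SD, n = 5) and 129 ± 83.0 CPM in AM (n = 4), and the integrin chain Itgav differed by 2.16 ± 0.31 (edgeR adjusted p = 7.9e-06). The ligand Tgfb1 was at 525 ± 109 and 430 ± 55.8 CPM and not called (adjusted p = 0.32). None of the 14 was called by edgeR on day 3 (3.98% of all genes), with 8 at an unadjusted p under 0.05. On day 7 Thbs1 alone was called (3.88 ± 0.96, edgeR adjusted p = 0.037), against 1.77% of all genes. That call held in 24 of 38 alternatives and was lost without any 1 of the BM day 7 libraries and without any 1 of 8 AM libraries, with adjusted p up to 0.25. Inhba, which encodes a subunit of activins, was the single list gene that rose in AM on all 3 days, by 6.15 ± 0.79, 4.59 ± 0.74 and 4.63 ± 0.73 (edgeR adjusted p = 1.9e-05, 0.00049 and 0.0017), and was chosen after its values were seen. The day 7 call of Inhba was lost when Y-linked expression was a covariate (3.39, adjusted p = 0.13).

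Other receptors of the TGF-beta family were higher in BM on day 1 in 4 of 9 genes and lower in 1, where 15.2% and 13.8% of all genes were. On day 3, 1 of the 9 was lower and none higher, where 2.99% and 0.997% of all genes were. On day 7 edgeR called none (1.77% of all genes), with 2 at an unadjusted p under 0.05. The co-receptor Eng (3.13 ± 0.88, edgeR adjusted p = 0.0092) and the activin receptor Acvr2a (2.33 ± 0.55, adjusted p = 0.0023) led those higher on day 1. In AM day 1 against day 0 the type I receptor Acvrl1 was the single one called (−2.33 ± 0.32, edgeR adjusted p = 1.9e-05). There 3.22% of all genes were higher and 3.06% lower. Acvrl1 was chosen after its values were seen. Of 14 genes of TGF-beta signalling and its inhibitors, 6 were higher and 2 lower in BM on day 1, beside the same shares of all genes. Smad3, which Tgfbr1 phosphorylates, was at 121 ± 19.7 CPM in BM and 3.50 ± 3.14 CPM in AM (5.10 ± 1.19, edgeR adjusted p = 0.0023). Pmepa1, a TGF-beta-induced inhibitor of the pathway, was at 11.4 ± 11 and 188 ± 58.4 CPM (−4.04 ± 0.47, adjusted p = 3.0e-07). None of these 14 was called by edgeR on days 3 and 7 (3.98% and 1.77% of all genes), with 3 and 4 at an unadjusted p under 0.05.

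Of 12 genes known as targets of GM-CSF or TGF-beta in macrophages, 2 were higher and 6 lower in BM on day 1 (15.2% and 13.8% of all genes), none higher and 3 lower on day 3 (0.997% and 2.99%), and 1 higher and 1 lower on day 7 (1.48% and 0.286%). On day 1 the repressor Bhlhe41 was far below AM (−4.21 ± 0.67, edgeR adjusted p = 5.5e-05). On day 3 Pparg, a nuclear receptor that GM-CSF and TGF-beta both induce in alveolar macrophages, was at 24.8 ± 4.89 CPM in BM (SD, n = 4) and 142 ± 25.1 CPM in AM (n = 3), a difference of −2.51 ± 0.35 (adjusted p = 1.0e-04). The transcription factor Cebpb was lower on day 3 (−0.54 ± 0.15, edgeR adjusted p = 0.036) and higher on day 1 (0.88 ± 0.13, adjusted p = 1.2e-05). The day 3 call held in 24 of 38 alternatives and was lost without any 1 of the AM day 3 libraries, and without BM_day3.1, BM_day3.3 or BM_day3.4. On day 7 Tgfbi, a secreted matrix protein, was higher (0.76 ± 0.19, adjusted p = 0.031, a call held in 29 of 38 alternatives and lost without any 1 of the BM day 7 libraries) and Ccnd2, a cyclin, lower (−1.74 ± 0.45, adjusted p = 0.047, a call held in 12 of 38 alternatives). In AM, Tgfbi rose from 974 ± 25.2 CPM on day 0 (SD, n = 3) to 3286 ± 702 CPM on day 3 (n = 3), a change of 1.75 ± 0.21 (adjusted p = 2.9e-06). Spi1 was at 657 ± 171 CPM in AM day 0 (n = 3) and was called by edgeR in none of the 10 comparisons.

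The genes whose log2 CPM followed each receptor most closely over the 26 libraries are given with Pearson's r as a description, since the libraries share groups and depth. Among the genes most like Csf1r were the complement gene C1qb (r = 0.928) and Adgre4 (0.927). Csf3r was most like Ifnar1 (0.948), a chain of the interferon receptor, Map4k4 (0.936) and Sorl1 (0.926). Csf1 was most like Arg2 (0.909), Ptgs2 (0.875), the inducible cyclooxygenase, and Ier3 (0.866). Csf2rb was most like Nme1 (0.907), Cish (0.901), an inhibitor induced through Stat5, and Fas (0.897), and Csf2rb2 was most like Procr (0.875), Tap2 (0.861) and Slc7a2 (0.853). Csf2ra was most like Noct (0.897), Cd44 (0.877) and Banp (0.863), and Tgfbr2 most like Fam129a (0.885), Fam19a3 (0.870) and Gcm2 (0.867). Tgfbr1 had the weakest partners, Fos (0.769), Nnt (0.695) and Fosb (0.678). Some of these genes were scarce. The highest group mean was 0.852 CPM for Nnt, 4.04 CPM for Fam19a3 and 4.44 CPM for Gcm2, so their r rests on few counts. Among the 8 genes themselves r was 0.85 for Csf2rb with Csf2rb2, which may share reads, 0.83 for Csf1r with Csf3r, 0.79 for Csf3r with Csf1 and −0.61 for Csf1 with Tgfbr2.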

How the data were processed

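The deposited values are raw read counts per Ensembl gene for 26 libraries in 7 groups of 3 to 5, grouped by the titles. Per the labels, the authors made stranded libraries of poly(A)-selected RNA. Per the submitters' processing notes, the tools named are featureCounts 2.0.0, HISAT2 2.1.0, Trimmomatic 0.39 and FastQC 0.11.9, and the build is GRCm38. The annotation release, the strand setting and the treatment of multi-mapped reads are not given in the sources used here. GENCODE M21 gave symbols, positions and exon lengths for 55227 of 55487 IDs. The other 260 hold 0.565% of the counts.

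All libraries entered 1 fit in edgeR 4.0.16 (limma 3.58.1, R 4.3.3) with TMM scaling, genes kept by filterByExpr at a minimum count of 10, and quasi-likelihood F tests with robust dispersion, with Benjamini-Hochberg adjustment over 17143 genes in each of 10 comparisons. Calls need an adjusted p under 0.05. For the 8 genes, fold changes of this fit are printed where the unadjusted p was under 0.05. Depth of 9176202 to 80816742 counts limits the precision for low genes such as Csf1. The 8 genes, the gene lists and the tests were chosen with earlier results of these data known. From each list the rule named up to 2 called genes per BM against AM comparison with the largest change, at least 5 CPM and no overlap, the most abundant gene, and for each of the 8 genes the 3 most correlated genes. A few genes chosen this way are not reported here.

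Alternatives were DESeq2 size factors, library size alone, DESeq2 1.42.0, no filter, a stricter filter (5 CPM in 3 libraries), the compared groups alone, replicate numbers as a block, library number range as a term, a covariate from 4 Y-linked genes, without BM_day1.3 and BM_day3.1, and without each library. Leaving out BM_day7.1 and BM_day7.2 was added after seeing the data. Samples with the same replicate number in the titles shared no deviation from their group means (correlation −0.047 to 0.069 over 69 pairs). This cannot show whether they came from the same animals, since an animal effect may be small beside other spread. No replicate pair agreed within counting noise. On simulated data for BM day 7 against AM day 7 (16464 genes) the procedure recovered 7.14% of genes changed 2-fold, 25.8% at 4-fold and 45.9% at 8-fold. Coding sequences were aligned with Biopython 1.88.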

Additional observations from a re-analysis of the deposited data

How the results depend on the processing

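Of the 21 calls of the 8 genes, 10 remained under every alternative run: Csf1r in AM on days 1, 3 and 7 against day 0 and in BM against AM on day 1, Tgfbr2 in AM on days 1 and 3, Csf3r in BM against AM on days 1 and 7, Csf1 on day 7, and Csf2ra in BM from day 1 to day 3. No reported fold change reversed. Csf2rb in AM day 1 and Csf2ra in BM from day 3 to day 7 were called in under 10 alternatives. Another scaling moved the median of all genes by at most 0.08 on the log2 scale. In fits to the compared groups alone the genes called among the 8 were 0 for BM against AM on day 3 (2 in the reported fit), 7 on day 7 (3), 3 for AM day 7 against day 0 (1), 6 for AM day 7 against day 3 (1), 1 for BM day 3 against day 1 (2) and 0 for BM day 7 against day 3 (1); the cause was not tested. Over all genes those fits to the compared groups alone called 6, 2948, 2578, 2246, 1117 and 41, in that order. The reported fit called 683, 303, 116, 272, 4432 and 683. DESeq2 called 3 of the 8 in AM day 7 against day 3 and 3 in BM day 7 against day 3. Without a filter 2 were called in AM day 1 against day 0 (4), and with the stricter filter 0 in BM day 7 against day 3. The Y-linked level as a covariate left 3 for BM against AM on day 1 (5), 1 on day 3, and 0 for AM and for BM day 7 against day 3. The library number range as a term left 0 for AM day 7 against day 3. Without BM_day1.3 and BM_day3.1 it was 3 there, and without BM_day7.1 and BM_day7.2 it was 0 for BM day 7 against day 3.

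The replicate block, with the numbers of the titles or of the descriptions, left 0 for AM day 7 against day 3 and 0 for BM day 7 against day 3, and ended the call of Csf2rb between BM and AM on day 1 (adjusted p = 0.056). Whether the numbers pair the samples is not known, and the description numbers could not be fitted with BM day 1. Leaving out each library in turn gave 4 to 5 calls for BM against AM on day 1, 1 to 3 on day 3 and 3 on day 7. It gave 2 to 5 for AM day 1 against day 0, 2 on day 3, 1 on day 7, 0 to 2 for AM day 7 against day 3, 2 to 3 for BM day 3 against day 1, 0 to 1 for BM day 7 against day 3, and 0 for the interaction. Over all genes the number called also moved, here over all alternatives and not only those without 1 library. For BM against AM it was 3368 to 6990 on day 1 (4969 reported) and 6 to 1834 on day 3 (683). On day 7 it was 200 to 2948 (303). For AM against day 0 it was 558 to 2425 on day 1 (1077) and 264 to 2327 on day 3 (430). On day 7 it was 37 to 2578 (116). For day 7 against day 3 it was 97 to 2246 in AM (272) and 41 to 1496 in BM (683). For BM day 3 against day 1 it was 1117 to 4987 (4432), and for the interaction 17 to 600 (62). The fit to the compared groups alone gave the values 3368, 6, 2948, 2327, 2578, 2246, 1117 and 41.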
